A study of Mus musculus with 2 samples.

Results

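The Ly49 receptor family was followed through single-cell RNA sequencing of liver non-parenchymal cells by the 10 genes whose symbols were listed as Klra1, Klra3, Klra4, Klra5, Klra6, Klra7, Klra8, Klra9, Klra10 and Klra17. These are 10 of the 11 Klra symbols, and of 27998 genes in all, that the deposited matrices list. The members were matched by symbol, the family having been chosen with earlier results of these data known, and each had at least 1 UMI (a unique molecular identifier, which marks 1 captured transcript) in kept cells of both libraries. Cells came from 1 library of the PKM2ΔMAC genotype and 1 library of the PKM2FL/FL genotype, and mice of both genotypes had been on an MCD diet for 8 weeks, so the diet is shared and no library on another diet enters any comparison. By the title of the study, PKM2, a splice form of pyruvate kinase from the gene Pkm, was targeted in macrophages in work on fibrosis in fatty liver disease. Not given in the sources used here are the promoter that drives the deletion, the strain, age and sex of the mice, and how many mice each library pools. Because each genotype is 1 library, no test between genotypes was possible, and every interval is a 95% interval for counting error only, not for differences between animals. UMIs of a Ly49 gene were often concentrated in few cells, which makes counting intervals of such sums too narrow, so the numbers of cells are given beside them.

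Ly49 receptors are lectin-like proteins on the surface of mouse NK cells, which kill infected or transformed cells and make interferon. Most members are inhibitory: they bind MHC class I molecules on other cells and recruit phosphatases such as Ptpn6 that dampen activation. Ly49D (gene Klra4) and Ly49H (gene Klra8) are activating, signal through the adaptor Tyrobp and, for Ly49H, recognise a protein of mouse cytomegalovirus. Each NK cell carries its own subset of the receptors, and Ly49Q (gene Klra17) is known from plasmacytoid dendritic cells, the main producers of type I interferon, rather than from NK cells. The other members are Ly49A (Klra1), Ly49C (Klra3), Ly49E (Klra5), Ly49F (Klra6), Ly49G (Klra7), Ly49I (Klra9) and Ly49J (Klra10).

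All 10 genes lie on the minus strand of chromosome 6 within chr6:129831154-130386874 of GRCm38 (mm10), a stretch of 556 kb, in the order Klra17, Klra5, Klra6, Klra4, Klra8, Klra9, Klra7, Klra10, Klra3 and Klra1 by rising coordinate. Their coding sequences share 77.6% to 96.9% of aligned bases over the 45 pairs, with a median of 81.7%. The closest pair is Klra9 and Klra10. The activating genes Klra4 and Klra8 share only 79.1% of coding bases, whereas Klra8 and the inhibitory Klra9 share 91.9% and Klra4 and the inhibitory Klra1 share 88.9%. Upstream, the order is different: in the 300 bases around the start site, Klra4 and Klra8 share 86.6% of aligned bases and Klra8 and Klra9 share 82.9%. The sequences of Klra4, Klra8, Klra9 and Klra17 follow because these genes carry the results below, the first 3 in NK-like cells and the last in plasmacytoid dendritic-like cells. They are RefSeq promoter windows of GRCm38.p6, 250 bases before to 50 bases after the annotated start, on the minus strand, at chr6:130067222-130067521 for Klra4, chr6:130129849-130130148 for Klra8, chr6:130193063-130193362 for Klra9 and chr6:129876623-129876922 for Klra17. Capitals mark the longest run of letters that at least 7 of the 10 members share without a mismatch.
Klra4: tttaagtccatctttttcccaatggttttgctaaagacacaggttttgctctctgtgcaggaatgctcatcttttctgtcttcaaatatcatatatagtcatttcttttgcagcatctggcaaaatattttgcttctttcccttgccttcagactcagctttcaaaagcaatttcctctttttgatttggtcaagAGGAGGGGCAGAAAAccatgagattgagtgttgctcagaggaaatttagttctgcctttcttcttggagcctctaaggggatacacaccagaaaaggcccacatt
Klra8: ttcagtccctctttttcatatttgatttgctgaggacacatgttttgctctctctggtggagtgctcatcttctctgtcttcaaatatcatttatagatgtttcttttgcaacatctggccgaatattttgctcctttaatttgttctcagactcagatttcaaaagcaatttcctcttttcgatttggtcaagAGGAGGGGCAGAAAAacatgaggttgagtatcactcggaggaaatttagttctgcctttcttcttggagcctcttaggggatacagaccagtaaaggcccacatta
Klra9: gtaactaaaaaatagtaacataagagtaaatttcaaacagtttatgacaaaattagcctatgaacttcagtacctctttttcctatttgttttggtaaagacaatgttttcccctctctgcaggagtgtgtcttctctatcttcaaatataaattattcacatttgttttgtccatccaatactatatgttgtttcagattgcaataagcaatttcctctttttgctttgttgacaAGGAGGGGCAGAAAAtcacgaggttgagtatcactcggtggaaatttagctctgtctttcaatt
Klra17: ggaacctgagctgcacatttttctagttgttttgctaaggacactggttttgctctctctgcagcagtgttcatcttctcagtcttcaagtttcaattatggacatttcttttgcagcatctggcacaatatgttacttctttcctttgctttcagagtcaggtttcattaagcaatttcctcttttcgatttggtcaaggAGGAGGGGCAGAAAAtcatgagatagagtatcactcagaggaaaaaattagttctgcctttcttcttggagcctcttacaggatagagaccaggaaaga

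The 15-base run AGGAGGGGCAGAAAA stood in the windows of 7 members (Klra3, Klra4, Klra5, Klra6, Klra8, Klra9 and Klra17), and in 9 of 32851 promoter windows (0.0274%) over 8 genes, the eighth being Gm52487. It ended 40 bases before the start in Klra4, 41 in Klra8 and 34 in Klra17, whereas in Klra9 its last base was the annotated start itself. Klra17, which was almost absent from NK-like cells, thus held the same run as Klra4 and Klra8, and its window shared 84.2% of aligned bases with that of Klra4. The windows of Klra1, Klra7 and Klra10 did not hold it without a mismatch, although Klra7 was abundant in NK-like cells. The Klra7 window did hold the similar letters aggaggagcataaaa, and only exact matches were counted. Short letters known from factors of lymphoid cells were then searched on both strands, overlaps allowed. GTGTGA, the core of T-box sites, was in 1 of 10 members (Klra1) and in 14.5% of all windows, and TGTGGT, a RUNX core, was in 1 of 10 (Klra1) against 16.8%. CTTTGA, a TCF core, was in 2 of 10 (Klra6 and Klra7) against 16.0% and CANNTG, the E-box, in 10 of 10 against 72.3%. A match or its lack describes the letters of these windows alone. The annotated start also differs between sources for Klra5, whose RefSeq start lies 4426 bases from the GENCODE start, and for Klra3, where the distance is 52 bases.

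Near-identical members can lose reads that map to several of them. In the last 500 bases of the transcripts, where 3′ libraries read, 15.6% of all 90-base windows of Klra10 were also found in another gene, as were 12.4% for Klra9, 6.57% for Klra7 and 5.15% for Klra3. The other 6 members had none in their own last 500 bases, although Klra8 transcripts held some windows of Klra9 elsewhere. Values of Klra10, Klra9, Klra7 and Klra3 are thus less certain than those of Klra4, Klra1, Klra5, Klra6 and Klra17, and Klra8 is not free of overlap with Klra9. Ly49 haplotypes also differ between inbred strains. How far the alleles of these mice match the reference was not tested.

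The PKM2ΔMAC library held 8949 barcodes with 43134027 UMIs and the PKM2FL/FL library 10054 barcodes with 54519921 UMIs. After filters, 8547 and 9529 cells were kept, with medians of 3719 and 4392 UMIs, and 17 barcodes occurred in both libraries. Pkm, the targeted gene, was at 133 CPM (counts scaled to a gate total of 1000000 UMIs) in Kupffer-like cells of the PKM2ΔMAC library and at 391 CPM in those of PKM2FL/FL, and at 177 and 214 CPM in NK-like cells; a 3′ count cannot tell a shortened transcript from a whole one. Lyz2, a lysozyme gene of macrophages, was at 15.3 CPM in classical monocyte-like cells of the PKM2ΔMAC library against 15810 CPM in those of PKM2FL/FL, so the libraries stand apart in a myeloid marker, and monocyte-like cells were gated without it. Cells were placed in gates by raw UMIs of fixed marker genes, and the ending "-like" says that a name rests on transcripts alone. NK-like cells numbered 413 and 616 (4.83% and 6.46% of kept cells), and ILC1-like cells, the liver-resident relatives of NK cells, 796 and 850.

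The gates were checked against defining markers. Granzyme A (Gzma), which no gate used, had UMIs in 97.6% of NK-like cells of the PKM2ΔMAC library and in 96.6% of those of PKM2FL/FL, while Cd3e was at 0 in both by the gate. Il7r, 1 of the ILC1 gate's own markers, was found in 88.4% and 86.4% of ILC1-like cells, where Eomes was at 0 by the gate. The gate's other markers were in fewer cells: Cited4 in 42.0% and 49.5%, Kit in 36.1% and 31.4% and Cxcr6 in 30.2% and 39.1%. Cd200r1 was in 19.6% and 19.5% and Itga1 in 5.78% and 6.12%, so the ILC1-like gate rests mostly on Il7r. Tcf4, which no gate used, was found in 98.6% and 98.5% of plasmacytoid dendritic-like cells. B cell markers stood at 3.39 and 3.90 CPM and myeloid markers at 166 and 233 CPM in NK-like cells. Another 542 cells of the PKM2ΔMAC library and 760 of PKM2FL/FL carried NK and ILC1 markers together or neither and stayed unresolved.

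Ly49 transcripts marked nearly every NK-like cell in both libraries. Of 413 NK-like cells of the PKM2ΔMAC library, 94.2% (Clopper-Pearson interval 91.5 to 96.2) had at least 1 UMI of a member, and of 616 cells of the PKM2FL/FL library 94.2% (92.0 to 95.9). After each cell was thinned to 1500 UMIs the shares were 86.6% over 400 cells and 86.2% over 606 cells, with 13 and 10 shallower cells left out. B-like cells, which should lack the receptors, gave 3.90% and 6.66% unthinned and 1.91% and 3.11% thinned, at median depths of 2810 and 3234 UMIs against 4266 and 4518 in NK-like cells. B-like cells are not the highest of the gates that should lack the receptors other than Klra17: the sum without Klra17 was 21.5 and 30.7 CPM in B-like cells, 8.67 and 86.7 CPM in neutrophil-like, 74.1 and 90.6 CPM in classical monocyte-like and 126.6 and 170.0 CPM in Kupffer-like cells of the PKM2ΔMAC and PKM2FL/FL libraries. The background thus differed by gate, and a level above that of B-like cells can still lie below that of another such gate. The Kupffer-like values rest on 21 UMIs in 4 of 100 cells of the PKM2ΔMAC library and 30 UMIs in 3 of 104 cells of PKM2FL/FL. Summed over the members, NK-like cells held 2247 CPM in the PKM2ΔMAC library and 2240 CPM in PKM2FL/FL, a ratio of 1.003 (0.966 to 1.04).

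**Figure D1:**
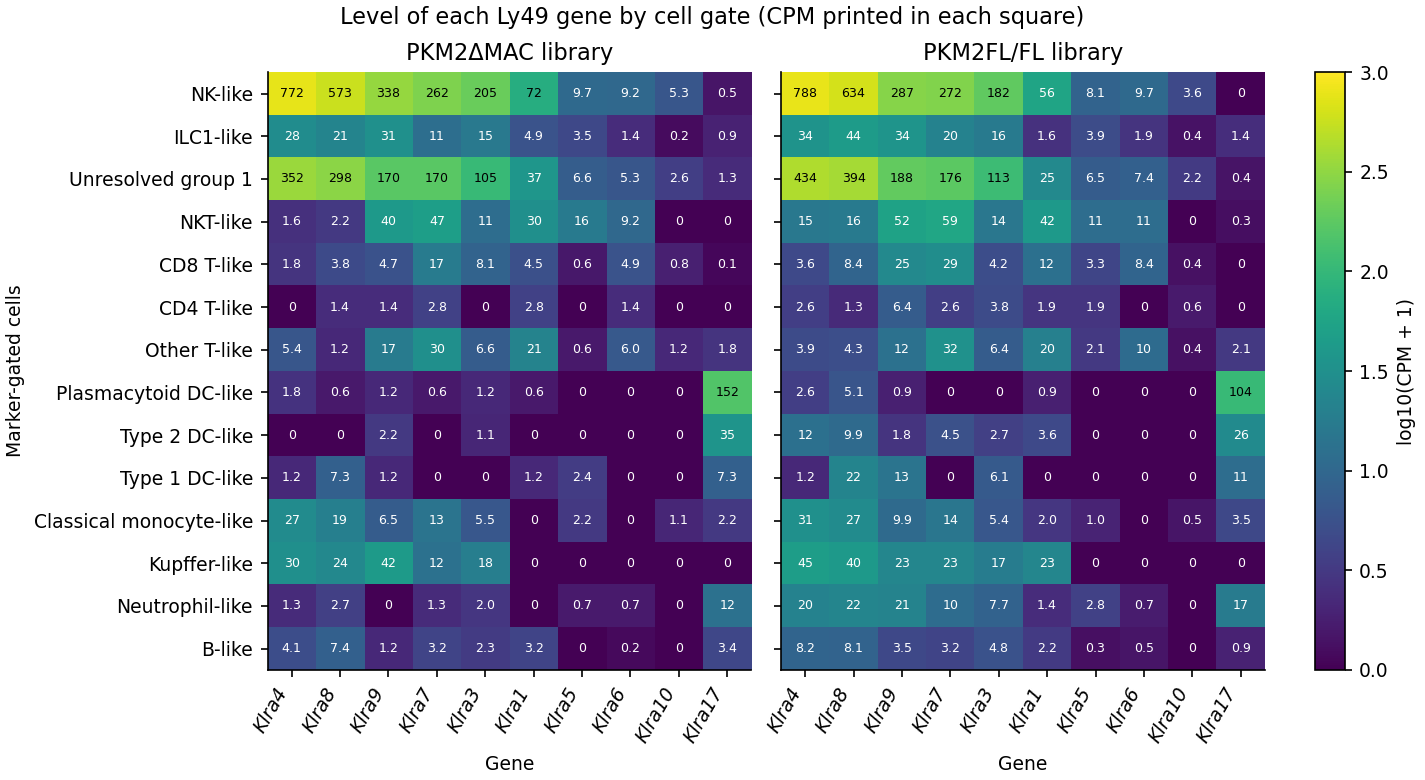
Level of each Ly49 gene (columns) in each gate (rows), as CPM on a log colour scale, in the PKM2ΔMAC library (left) and the PKM2FL/FL library (right). NK-like cells are high for 6 genes, from Klra4 at 772.5 and 788.1 CPM down to Klra1 at 72.1 and 55.8 CPM, and Klra17 is high in plasmacytoid dendritic-like cells.

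The activating receptors led the family in NK-like cells. Klra4 (Ly49D) had 1596 UMIs, or 772.5 CPM (735 to 811), in the PKM2ΔMAC library and 2428 UMIs, or 788.1 CPM (757 to 820), in PKM2FL/FL, and was seen in 55.9% and 61.7% of NK-like cells. Klra8 (Ly49H) followed at 572.6 CPM (540 to 606) in the PKM2ΔMAC library and 633.9 CPM (606 to 663) in PKM2FL/FL, in 63.2% and 68.3% of cells. Klra8 was thus seen in more cells than Klra4 in both libraries, although Klra4 had more UMIs, with a median of 5 UMIs in the cells that had it against 4 for Klra8. Together they made up 59.9% (58.5 to 61.3) of the NK-like cells' Ly49 UMIs other than Klra17 in the PKM2ΔMAC library and 63.5% (62.3 to 64.6) in PKM2FL/FL.

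The inhibitory receptors Klra9, Klra7 and Klra3 came next. Klra9 (Ly49I) stood at 337.8 CPM (313 to 364) in the PKM2ΔMAC library and 286.6 CPM (268 to 306) in PKM2FL/FL, and was seen in 55.2% of NK-like cells (50.3 to 60.1) against 44.8% (40.8 to 48.8). Klra7 (Ly49G) had 261.9 CPM (240 to 285) in the PKM2ΔMAC library and 271.7 CPM (254 to 291) in PKM2FL/FL, so that its interval overlapped that of Klra9 in the PKM2FL/FL library but not in PKM2ΔMAC. Klra3 (Ly49C), which like Ly49I is known to bind H-2Kb, had 205.2 CPM (186 to 226) in the PKM2ΔMAC library against 182.1 CPM (167 to 198) in PKM2FL/FL. The intervals of Klra3 and Klra7 did not overlap in either library, and the order Klra4, Klra8, Klra9, Klra7, Klra3, Klra1 was the same in both. Klra1 (Ly49A) was at 72.1 CPM (61.0 to 84.7) and 55.8 CPM (47.8 to 64.8), in 10.7% and 8.44% of cells.

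The remaining members were scarce in NK-like cells, and Klra17 alone had under 3 UMIs. Klra5 (Ly49E), a receptor known from fetal NK cells, had 20 UMIs in 8 cells of the PKM2ΔMAC library and 25 UMIs in 8 cells of PKM2FL/FL. Klra6 (Ly49F) had 19 UMIs in 14 cells and 30 UMIs in 19 cells. The levels of Klra5 and Klra6 could not be told apart in either library, since both lay between 8.11 and 9.74 CPM with overlapping intervals. Klra10 (Ly49J) had 11 UMIs in each library, spread over 11 and 10 cells, and shared the most 3′ sequence with other genes. Klra17 (Ly49Q) had 1 UMI in the PKM2ΔMAC library and 0 in 616 cells of PKM2FL/FL, which allows up to 0.974 CPM at 3 counts.

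**Figure D2:**
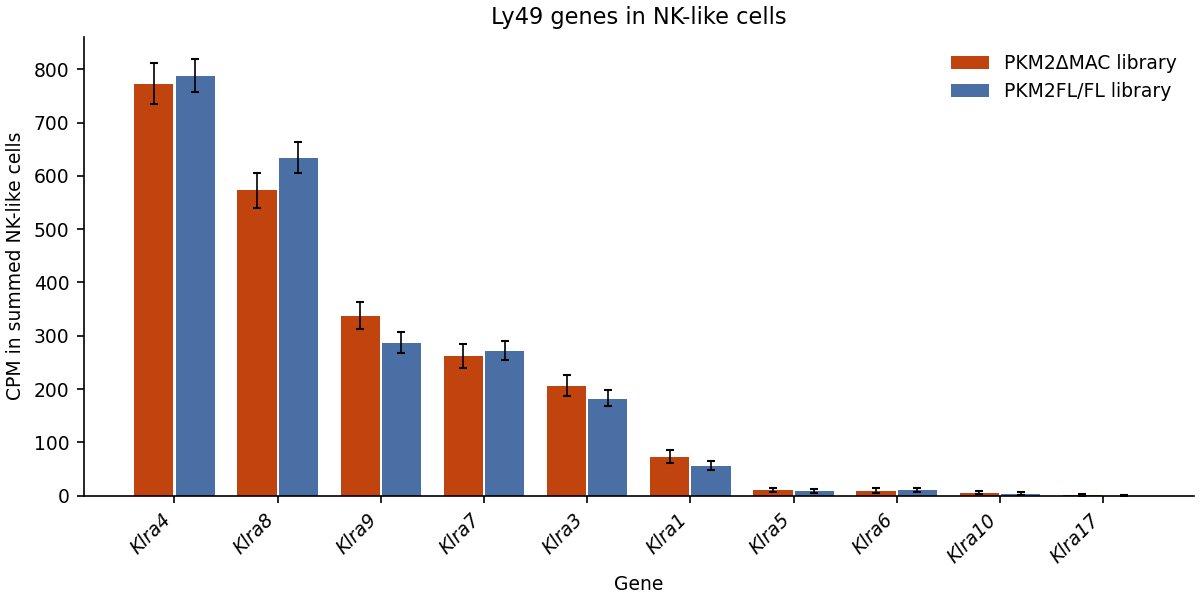
Level of each Ly49 gene in summed NK-like cells, in CPM, for the PKM2ΔMAC library (left bar of each pair) and the PKM2FL/FL library (right bar), with exact Poisson 95% intervals for counting error. The order of the 6 most abundant genes is the same in both libraries, and the intervals of the pair are apart for Klra9 alone, at 337.8 and 286.6 CPM.

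Between the libraries, the receptors of the NK-like gate taken as a whole differed little. Of the 10 members, 9 had at least 20 UMIs over both libraries, and none of them was 1.5-fold higher or 1.5-fold lower in the PKM2ΔMAC library. Nearest to that fold was Klra10, at 1.49 (0.586 to 3.79) on 11 UMIs in each library. Klra1, Klra5, Klra6 and Klra10 passed that fold under some other gate or scale, with farthest ratios of 1.503, 1.79, 0.584 and 1.67. Among all 9164 genes with that many UMIs in NK-like cells, 5.28% were at least 1.5-fold higher and 9.2% at least 1.5-fold lower. The median log2 ratio was 0.17 over the 9 members and -0.06 over all these genes. Klra9 had a ratio of 1.18 (1.07 to 1.30), Klra1 of 1.29 (1.03 to 1.62) and Klra3 of 1.13 (0.991 to 1.28), the interval of Klra3 alone holding 1. Klra8 had a ratio of 0.903 (0.840 to 0.971), Klra4 of 0.980 (0.920 to 1.05) and Klra7 of 0.964 (0.864 to 1.08). The counting intervals of Klra9, Klra1 and Klra8 left out 1, but with 1 library a genotype it was not tested whether such ratios exceed the spread between animals. The makeup of the gate moved with them, with mature cells (those with S1pr5 or Cma1) at 48.7% of NK-like cells in the PKM2ΔMAC library and 39.1% in PKM2FL/FL. Summed over the members, the ratio was 1.015 (0.962 to 1.07) in mature cells and 0.927 (0.879 to 0.978) in other NK-like cells. The interval of the latter left out 1. Within mature and other NK-like cells the intervals held 1 for Klra9, at ratios of 1.07 (0.934 to 1.22) and 1.15 (0.987 to 1.34), and for Klra1, at 1.14 (0.823 to 1.58) and 1.35 (0.979 to 1.87). The interval of Klra9 in the whole gate also came to hold 1 when NK-like and ILC1-like cells were split by the greater marker sum, at 1.07 (0.977 to 1.16), and that of Klra8 with a stricter gate, at 0.943 (0.870 to 1.02), and with median-of-ratios size factors, at 0.937 (0.871 to 1.01). Conversely, the interval of Klra3 came to leave out 1 with a looser gate, with these size factors and with that split, at ratios of 1.16, 1.17 and 1.15. The unresolved cells, outside this gate, differed more, with a ratio of 0.851 (0.816 to 0.887) for the sum without Klra17. There Klra4 had a ratio of 0.81 (0.751 to 0.873), Klra8 of 0.756 (0.697 to 0.819) and, the other way, Klra1 of 1.49 (1.14 to 1.96). The intervals of the other members held 1 there. The part of the makeup of the unresolved cells in these ratios was not tested.

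**Figure D3:**
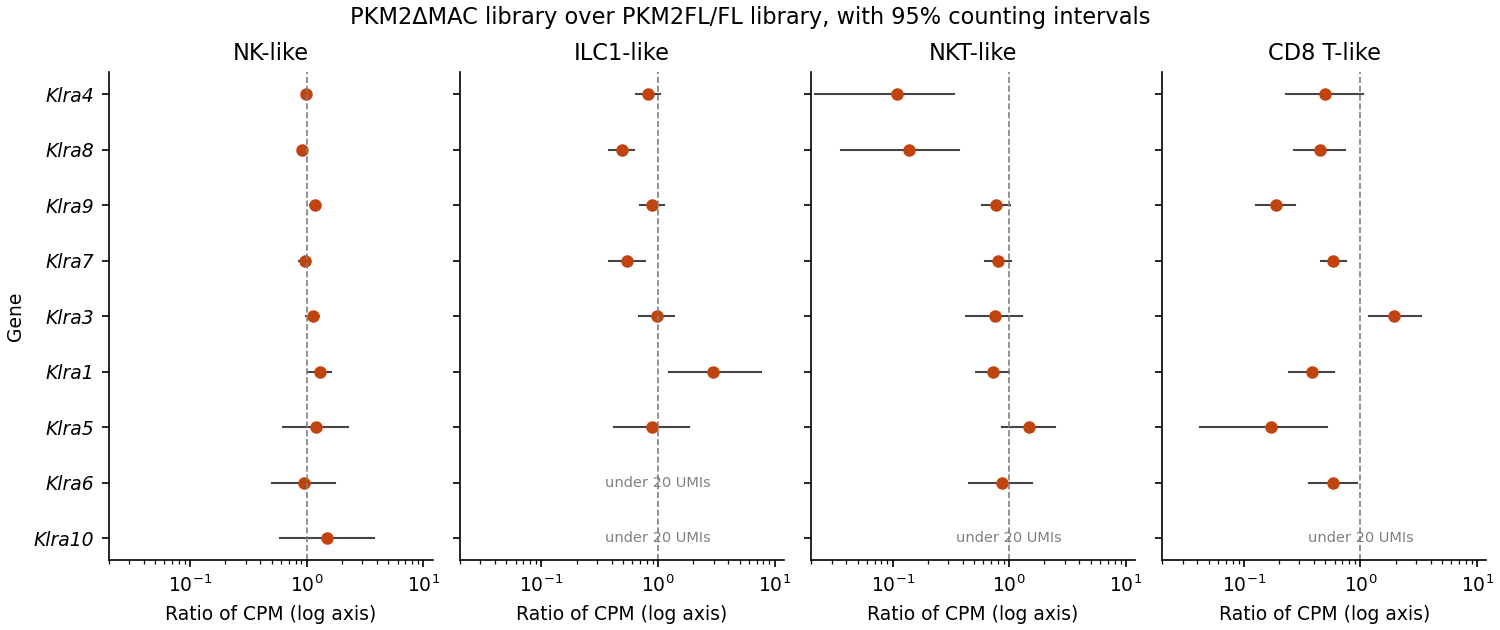
Ratio of the PKM2ΔMAC library over the PKM2FL/FL library for Ly49 genes by gate, on a log axis, with exact conditional 95% intervals for counting error. In NK-like cells the members lie between Klra8 at 0.903 and Klra10 at 1.49, the latter on 11 UMIs in each library, with Klra9 at 1.18. Most members lie below 1 in CD8 T-like cells.

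Genes that work with the receptors were about as close between the libraries. Of 17 adaptor and signalling genes, 16 had at least 20 UMIs in NK-like cells, and 0 were past 1.5-fold, with a median log2 ratio of -0.07. The phosphatase gene Ptpn6 was at 77.4 CPM in the PKM2ΔMAC library and 59.7 CPM in PKM2FL/FL, a ratio of 1.30 (1.04 to 1.61), and the adaptor gene Lat2 at 120 and 153 CPM, a ratio of 0.784 (0.669 to 0.916). All 8 listed MHC class I genes, which include the subunit gene B2m and were not restricted to Ly49 ligands, had enough UMIs. Of these genes 0 were past 1.5-fold, with a median log2 ratio of -0.22. The lowest of them was H2-Q6, at 743.0 CPM in the PKM2ΔMAC library and 952.0 CPM in PKM2FL/FL. Among 16 of 17 transcription factors of NK cell and ILC1 identity, 2 were past 1.5-fold and both higher in the PKM2ΔMAC library, Ikzf2 with 37.8 CPM against 21.1 CPM in PKM2FL/FL and Hic1. Among 14 of 15 other lectin-like receptor genes, 2 were higher and 0 lower, with a median log2 ratio of 0.18. These were Klrg1, an inhibitory receptor of mature NK cells, with 48.4 CPM in the PKM2ΔMAC library against 26.0 CPM in PKM2FL/FL, and Klrb1b with 257 CPM against 156 CPM. Next to these receptor genes, no Ly49 gene was past 1.5-fold.

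Single NK-like cells carried several Ly49 genes at once. The mean number of members detected per cell was 2.71 in the PKM2ΔMAC library and 2.66 in PKM2FL/FL, and 1.86 and 1.802 after thinning to 1500 UMIs. The most frequent number was 3, in 32.2% of NK-like cells of the PKM2ΔMAC library and 34.1% of those of PKM2FL/FL, and no cell had more than 6. Cells with 0 members were 5.81% and 5.84%, and cells with a single member 13.3% and 10.2%. These numbers fall with depth, as the thinned means show, so a cell with few genes can be a shallow cell.

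**Figure D4:**
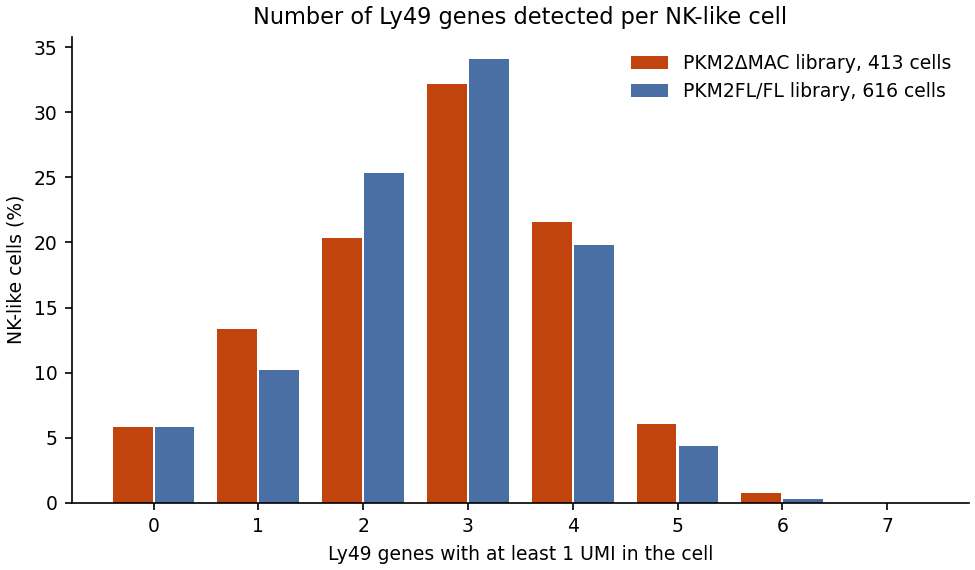
Share of NK-like cells (percent) by the number of Ly49 genes with at least 1 UMI in the cell, for the PKM2ΔMAC library (left bar of each pair, 413 cells) and the PKM2FL/FL library (right bar, 616 cells). Both libraries peak at 3 genes, with 32.2% and 34.1% of cells.

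Pairs of members were found together about as often as the product of their shares gives. Over the 10 pairs of Klra3, Klra4, Klra7, Klra8 and Klra9 in thinned cells, the observed share over the product ranged from 0.847 to 1.20 in the PKM2ΔMAC library and from 0.919 to 1.15 in PKM2FL/FL. The activating pair Klra4 and Klra8 was at the upper end, in 25.7% of cells of the PKM2ΔMAC library and 28.6% of those of PKM2FL/FL, 1.20 and 1.13 times the product. Klra4 and Klra9 were at 0.847 and 0.930 times the product, the lowest of the 10 pairs in the PKM2ΔMAC library. Whether these ratios differ from 1 was not tested.

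The Ly49 genes also varied from cell to cell more than most genes of NK-like cells. The variance over the mean of the thinned counts, which is 1 for pure counting, was 2.46 for Klra4 in the PKM2ΔMAC library and 2.23 in PKM2FL/FL, 1.82 and 1.79 for Klra8, and 1.78 and 1.97 for Klra9. Klra7 had 1.81 and 1.78, and Klra3 had 1.57 and 1.72. All 5 lay above the 95th percentile of the 2212 and 2314 genes with a mean of at least 0.1, which was 1.49 in the PKM2ΔMAC library and 1.46 in PKM2FL/FL, and Klra4 ranked 27 and 25. The genes' median was 1.04 in each library. Single cells reached 31 UMIs of Klra4 in the PKM2ΔMAC library and 30 in PKM2FL/FL, although 44.1% and 38.3% of the gate's cells had none.

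**Figure D5:**
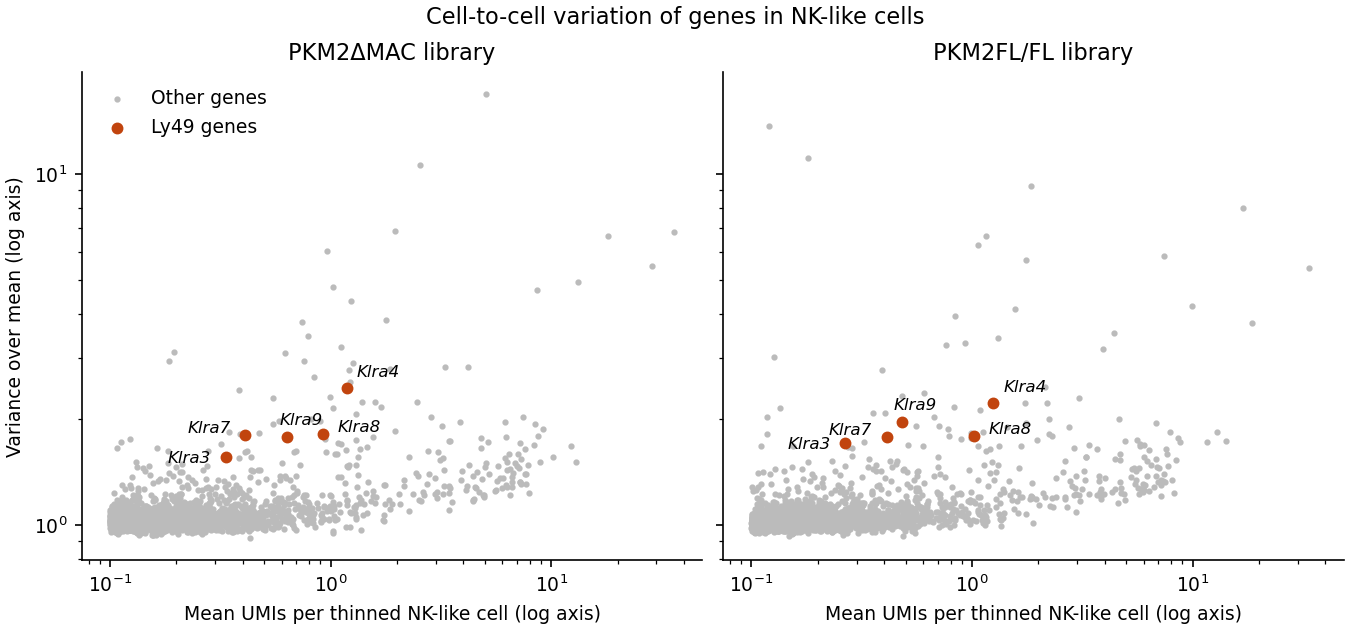
Variance over mean against mean UMIs per NK-like cell after thinning to 1500 UMIs, both on log axes, for Ly49 genes (coloured, named) and all other genes with a mean of at least 0.1 (grey), in the PKM2ΔMAC library (left) and the PKM2FL/FL library (right). The 5 Ly49 genes lie between 1.57 and 2.46, above the 95th percentile of 1.49 and 1.46.

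Within the NK-like gate, mature cells held more of the family than the other NK-like cells. The sum without Klra17 was 1.48 times as high in mature as in other NK-like cells in the PKM2ΔMAC library (1.40 to 1.57) and 1.36 times in PKM2FL/FL (1.29 to 1.42). The share of cells with any member was 97.0% (93.6 to 98.9) of mature and 91.5% (86.9 to 94.9) of other cells in the PKM2ΔMAC library and 97.9% (95.2 to 99.3) of mature and 91.7% (88.5 to 94.3) of other cells in PKM2FL/FL. Thinned to 1500 UMIs it was 91.3% (86.5 to 94.9) of mature and 82.1% (76.1 to 87.1) of other cells in the PKM2ΔMAC library and 91.8% (87.5 to 94.96) against 82.7% (78.4 to 86.4) in PKM2FL/FL, so that the intervals were apart in PKM2FL/FL both ways and overlapped slightly in PKM2ΔMAC. Klra3 and Klra9 were the members with the greatest ratios among the 5 abundant ones. Klra9 stood at 451.5 CPM in mature against 245.1 CPM in other cells of the PKM2ΔMAC library and at 422.3 against 212.9 CPM in PKM2FL/FL, and Klra3 at 2.11 and 1.87 times the level of other cells. Klra7 was closer, with ratios of 1.16 (0.977 to 1.38) and 1.08 (0.938 to 1.25). At least 1.5-fold higher in mature cells were 2 of 7 members with 20 UMIs in the PKM2ΔMAC library (Klra3 and Klra9) and 4 of 8 in PKM2FL/FL (Klra1, Klra3, Klra6 and Klra9), where 9.55% and 7.37% of all genes were.

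Klra8 was followed in mature and in other NK-like cells. In mature cells it was at 700.5 CPM in the PKM2ΔMAC library and 651.9 CPM in PKM2FL/FL, a ratio of 1.08 (0.965 to 1.20). In other NK-like cells it was at 468.3 CPM against 624.1 CPM, a ratio of 0.750 (0.677 to 0.831). By cells, Klra8 was seen in 132 of 201 mature cells (65.7%, 58.7 to 72.2) of the PKM2ΔMAC library and 155 of 241 (64.3%, 57.9 to 70.4) of PKM2FL/FL, and in 129 of 212 other cells (60.8%, 53.9 to 67.5) against 266 of 375 (70.9%, 66.0 to 75.5), so these shares overlapped in both kinds of cell. The difference between these ratios was not tested.

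ILC1-like cells held Ly49 transcripts at a small fraction of the NK level. The sum without Klra17 was 116.5 CPM in ILC1-like against 2246 CPM in NK-like cells of the PKM2ΔMAC library, a ratio of 0.0519 (0.0472 to 0.0569), and 156.4 against 2240 CPM in PKM2FL/FL, a ratio of 0.0698 (0.0647 to 0.0753). All 8 members with at least 20 UMIs were at least 1.5-fold lower in ILC1-like cells in each library, where 7.53% and 7.45% of all genes were. The smallest gap was that of Klra5, whose level in ILC1-like cells was 0.358 and 0.482 times that in NK-like cells. ILC1-like cells still stood above B-like cells, by 5.41 and 5.09 times in the sum. They were not above the 126.6 and 170.0 CPM of Kupffer-like cells. Those Kupffer-like sums rest on 21 and 30 UMIs in 4 of 100 and 3 of 104 cells, so the order of these gates is not resolved. A Ly49 UMI was thus seen in 4.0% (1.10 to 9.93) and 2.89% (0.599 to 8.20) of Kupffer-like cells, at median depths of 1094 and 1116 UMIs. By member, ILC1-like cells were above B-like cells in both libraries for Klra3, Klra4, Klra5, Klra7, Klra8 and Klra9. The intervals of Klra1, at 1.53 (0.775 to 3.04) and 0.744 (0.270 to 1.90) times, and of Klra6 and Klra10 held 1. At least 1 Ly49 UMI was seen in 14.6% of ILC1-like cells of the PKM2ΔMAC library and 19.9% of those of PKM2FL/FL, and in 8.44% and 11.4% after thinning.

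In ILC1-like cells the family was lower in the PKM2ΔMAC library, at 117.5 CPM over all members against 157.8 CPM in PKM2FL/FL, a ratio of 0.744 (0.664 to 0.834). Klra8 differed by more CPM than any other member, with 92 UMIs in 31 cells (21.3 CPM) of the PKM2ΔMAC library and 212 UMIs in 66 cells (43.7 CPM) of PKM2FL/FL, a ratio of 0.487 (0.377 to 0.625). Klra7 had 48 UMIs in 22 cells and 99 UMIs in 46 cells, a ratio of 0.544 (0.377 to 0.776). The shares of cells pointed the same way, with Klra8 in 3.89% (2.66 to 5.48) against 7.77% (6.06 to 9.77) of ILC1-like cells. Klra1 went the other way, with 21 UMIs against 8, but these lay in 7 cells of the PKM2ΔMAC library and 6 of PKM2FL/FL, so the shares of cells overlapped. These were 3 of 7 members with 20 UMIs past 1.5-fold, where 15.0% of all genes were. Klra9, Klra4, Klra3 and Klra5 had ratios between 0.818 and 0.977, each with an interval that held 1. The makeup of the gate moved too, with Cxcr6 in 30.2% and 39.1% of cells, Cited4 in 42.0% and 49.5% and Kit in 36.1% and 31.4%. In B-like cells the sum without Klra17 had a ratio of 0.701 (0.555 to 0.884). Relative to B-like cells, the ILC1-like sum was thus not lower in PKM2ΔMAC, at 5.41 times against 5.09 in PKM2FL/FL. The part of makeup and background was not tested.

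NKT-like cells, T cells with an NK receptor or the factor Zbtb16 (gamma-delta T cells with these markers not set apart), had another order of members. Klra7, Klra9 and Klra1 led, at 47.3, 40.3 and 29.9 CPM in the PKM2ΔMAC library and 58.7, 52.0 and 41.5 CPM in PKM2FL/FL. Klra4 and Klra8, the activating genes, had 3 and 4 UMIs in the PKM2ΔMAC library, but at 15.0 and 15.8 CPM in PKM2FL/FL they stood beside Klra3 at 14.4 CPM and above Klra5 and Klra6 at 10.7 CPM each. Together they made up 2.42% (0.979 to 4.93) of the Ly49 UMIs other than Klra17 in the PKM2ΔMAC library and 14.1% (11.7 to 16.7) in PKM2FL/FL, against 59.9% and 63.5% in NK-like cells. Klra5 and Klra6, scarce in NK-like cells, had ratios of NKT-like over NK-like cells whose intervals held 1, at 1.63 (0.891 to 3.04) and 1.01 (0.491 to 2.04) in the PKM2ΔMAC library and at 1.32 (0.778 to 2.29) and 1.10 (0.665 to 1.84) in PKM2FL/FL. At least 1 Ly49 UMI was found in 20.2% of 327 NKT-like cells of the PKM2ΔMAC library and in 30.6% of 586 cells of PKM2FL/FL, and in 12.1% and 17.03% after thinning.

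Over all members, NKT-like cells held 157 CPM in the PKM2ΔMAC library and 219 CPM in PKM2FL/FL, a ratio of 0.717 (0.625 to 0.822). Past 1.5-fold were 2 of 8 members with 20 UMIs, both lower, where 22.2% of all genes were past it in either direction. They were the activating pair. Klra4 had 3 UMIs in 3 cells of the PKM2ΔMAC library and 53 UMIs in 13 cells of PKM2FL/FL, of which 27 lay in 1 cell, and Klra8 had 4 UMIs in 4 cells against 56 UMIs in 20 cells, of which 18 lay in 1 cell. By cells, Klra4 was in 0.917% (0.190 to 2.66) and 2.22% (1.19 to 3.76) of the gate, and Klra8 in 1.22% (0.334 to 3.10) and 3.41% (2.10 to 5.22), so these intervals overlapped. In the PKM2ΔMAC library the level of both was at or below that in B-like cells, with ratios of 0.402 and 0.293, and in PKM2FL/FL it was 1.82 and 1.96 times that level. The makeup of the gate moved with these values: Zbtb16 was in 60.6% of NKT-like cells of the PKM2ΔMAC library and 46.4% of those of PKM2FL/FL, Klrb1c in 49.9% and 69.3%, and Il4 at 14.1 and 50.6 CPM. Its part in the Ly49 difference was not tested.

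CD8 T-like cells had low Ly49 levels, higher in memory-like than in naive-like cells. In memory-like cells (with Il2rb or Nkg7 and without Lef1, Dapl1 and Ccr7) the sum was 131 CPM in the PKM2ΔMAC library and 195 CPM in PKM2FL/FL, against 8.61 and 10.8 CPM, or 4 and 5 UMIs, in naive-like cells. That is 15.2 (5.72 to 57.4) and 18.1 (7.64 to 56.3) times as high. Memory-like cells held 76 of the gate's 330 UMIs of the 9 members in the PKM2ΔMAC library and 222 of 516 in PKM2FL/FL, so most lay in cells that were neither memory-like nor naive-like. In memory-like cells Klra7 led with 57.0 CPM in the PKM2ΔMAC library and 70.4 CPM in PKM2FL/FL, followed by Klra9 with 31.1 and 61.6 CPM and Klra6 with 15.5 and 16.7 CPM. Klra4 and Klra8 together made up 11.8% and 2.70% of the memory-like cells' Ly49 UMIs, on 9 and 6 UMIs. In the CD8 T-like gate as a whole, Klra4 stood at 0.447 and 0.442 times its level in B-like cells and Klra8 at 0.508 and 1.04 times, and each interval held 1 or lay below it.

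CD8 T-like cells held less of the family in the PKM2ΔMAC library. The sum was 46.2 CPM over 1050 cells of the PKM2ΔMAC library and 93.8 CPM over 825 cells of PKM2FL/FL, a ratio of 0.492 (0.428 to 0.566). Of the 8 members with at least 20 UMIs, 8 were past 1.5-fold, 7 lower and 1 higher in the PKM2ΔMAC library, where 16.9% of all genes were past it in either direction, and the median log2 ratio was -1.08 over these members and -0.13 over all genes. The 8 include Klra4 and Klra8, which were not above B-like cells in either library, and Klra3, whose level in PKM2FL/FL was 0.880 times that of B-like cells (0.488 to 1.57), so the count is not one of members above background. Klra5 was farthest, at a ratio of 0.171 (0.0420 to 0.518) on 4 UMIs against 18. Klra9 came next, with 34 UMIs in 15 cells (4.75 CPM) of the PKM2ΔMAC library and 138 UMIs in 49 cells (25.1 CPM) of PKM2FL/FL, a ratio of 0.189 (0.126 to 0.277). It was seen in 1.43% (0.802 to 2.35) of cells against 5.94% (4.43 to 7.78). Klra1 had 32 UMIs in 13 cells and 64 UMIs in 29 cells, a ratio of 0.384 (0.243 to 0.596). Klra7 had 16.9 CPM in the PKM2ΔMAC library against 28.9 CPM in PKM2FL/FL, but was seen in 5.43% (4.14 to 6.98) and 6.06% (4.53 to 7.91) of cells, and 1 cell of PKM2FL/FL held 24 of its 159 UMIs. Klra3 was the member that was higher, with 58 UMIs in 32 cells of the PKM2ΔMAC library against 23 UMIs in 15 cells of PKM2FL/FL, a ratio of 1.94 (1.18 to 3.29).

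The makeup of the CD8 T-like gate differed in the same direction. Memory-like cells were 11.2% (9.39 to 13.3) of the gate in the PKM2ΔMAC library and 24.8% (21.9 to 27.9) in PKM2FL/FL, while naive-like cells were 9.62% and 10.3% and the rest 79.1% and 64.8%. Within memory-like cells the ratio of the sums was 0.672 (0.511 to 0.875), from 76 UMIs in 21 cells of the PKM2ΔMAC library and 222 UMIs in 44 cells of PKM2FL/FL. No such ratio was calculated for the rest of the gate, which held most of its Ly49 UMIs. The shares of memory-like cells with a Ly49 UMI overlapped, at 17.8% (11.4 to 25.9) and 21.5% (16.1 to 27.7). Other T-like cells, which carried neither the CD4, CD8 nor NKT markers of the gates, held 88.3 CPM without Klra17 in the PKM2ΔMAC library and 91.2 CPM in PKM2FL/FL, a ratio of 0.968 (0.786 to 1.19). How much of the gap in the whole gate goes with its makeup was not tested. Over the whole gate, at least 1 Ly49 UMI was found in 13.4% and 17.1% of cells, and in 4.64% and 7.81% after thinning, against 1.91% and 3.11% in B-like cells. The background moved in the same direction between the libraries: in B-like cells the sum without Klra17 was 21.5 CPM in the PKM2ΔMAC library and 30.7 CPM in PKM2FL/FL, a ratio of 0.701 (0.555 to 0.884), and in neutrophil-like cells 8.67 and 86.7 CPM. Its part in the ratios of CD8 T-like, NKT-like and ILC1-like cells was not tested, and the level of CD8 T-like cells over B-like cells was 2.14 in the PKM2ΔMAC library and 3.06 in PKM2FL/FL. In both libraries the CD8 T-like sum lay below that of Kupffer-like cells, which rests on 4 and 3 cells with a Ly49 UMI.

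Klra17 (Ly49Q) had its own distribution. In plasmacytoid dendritic-like cells it had 256 UMIs over 220 cells (152 CPM) of the PKM2ΔMAC library and 122 UMIs over 136 cells (104 CPM) of PKM2FL/FL, and was seen in 54.1% (47.3 to 60.8) and 48.5% (39.9 to 57.3) of cells. The ratio of levels was 1.46 (1.17 to 1.82), under 1.5-fold, and 0 of the 1 member with 20 UMIs was past it, where 21.8% of all genes were. Thinned to 1500 UMIs, the cells gave 19.2% and 14.4% for the share with a UMI. The other 9 members had 10 and 11 UMIs in these cells in all, or 5.94 and 9.41 CPM, below the 21.5 and 30.7 CPM of B-like cells. Ccr9, a chemokine receptor of plasmacytoid dendritic cells, moved with it, at 1812 CPM in the PKM2ΔMAC library and 996 CPM in PKM2FL/FL, while Tcf4, the factor that sets this cell type, was at 1770 and 2263 CPM. Their part in the Klra17 ratio was not tested.

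Other myeloid cells had less Klra17. Type 2 conventional dendritic-like cells were at 34.7 CPM in the PKM2ΔMAC library and 26.2 CPM in PKM2FL/FL, neutrophil-like cells at 12.01 and 16.8 CPM and type 1 conventional dendritic-like cells at 7.33 and 10.9 CPM. Mature dendritic-like cells had 7 UMIs in 18 cells of the PKM2ΔMAC library and 1 UMI in 42 cells of PKM2FL/FL, too few cells for a comparison. Classical monocyte-like cells had 2 UMIs in 114 cells and 7 UMIs in 224 cells, a ratio of 0.629 (0.0638 to 3.30), and Kupffer-like cells had 0 in 100 and 0 in 104 cells, which at 3 counts a library allows up to 18.1 and 17 CPM. In B-like cells Klra17 was at 3.36 and 0.9499 CPM, and in NK-like cells at 0.484 and 0 CPM. A difference of Klra17 between the genotypes in classical monocyte-like and Kupffer-like cells was not detectable at this depth. The other 9 members together had 68 UMIs in classical monocyte-like cells of the PKM2ΔMAC library and 183 UMIs in those of PKM2FL/FL, a ratio of levels of 0.818 (0.610 to 1.09). Klra4 and Klra8 made up 61.8% and 63.9% of these, beside 59.9% and 63.5% in NK-like cells, and the UMIs of all members lay in 11 of 114 and 28 of 224 cells. Type 2 conventional dendritic-like cells had 3 and 38 UMIs of the 9 members and type 1 conventional dendritic-like cells 11 and 35.

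Over all kept cells, the 9 members other than Klra17 stood at 284.4 CPM in the PKM2ΔMAC library and 392.9 CPM in PKM2FL/FL, a ratio of 0.724 (0.707 to 0.741), and Klra17 at 9.72 and 4.96 CPM, a ratio of 1.96 (1.67 to 2.31). In such a total, fewer cells of a type and less RNA per cell cannot be told apart. The gates show the shares: NK-like cells were 4.83% and 6.46% of kept cells with a Ly49 ratio of 1.003, and plasmacytoid dendritic-like cells 2.57% and 1.43% with a Klra17 ratio of 1.46. NK-like, ILC1-like and unresolved cells together held 75.0% of the UMIs of the 9 members in the PKM2ΔMAC library and 69.4% in PKM2FL/FL, all T-like cells 6.73% and 8.04%, and cells of no gate 16.7% and 20.04%. The members differed in this: T-like cells held 47.7% and 40.9% of the Klra6 UMIs, more than the 31.1% and 26.1% in the NK and ILC gates together, but only 0.746% and 1.52% of the Klra4 UMIs. Klra5 and Klra1 lay between, with 25.4% and 30.0% and with 24.1% and 33.1% in T-like cells. Plasmacytoid dendritic-like cells held 65.1% and 49.2% of the Klra17 UMIs.

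Across cell types, Klra4 and Klra8 had the most similar patterns of the family. Over 28 points (gates with at least 50 cells, in each library), their log2(CPM + 10) values correlated at a Pearson r of 0.981, a description over points that share libraries. Among 8608 genes outside the family, the patterns most similar to that of Klra4 were those of Khdc1a (0.971), Styk1 (0.955) and Gzma (0.955), and to Klra8 those of Gzma (0.961), Styk1 (0.960) and Khdc1a (0.958). Styk1 was also among the first 3 for Klra3 (0.971) and Klra9 (0.955). Klra7 was most like Wdr95 (0.912), Prf1 (0.897) and Kcnj8 (0.896), and Klra1, with more of its UMIs in T-like cells, had lower values, led by Camk2n1 (0.850). Klra17 was most like Cd300c (0.925), Smim5 (0.914) and Cd209d (0.908), and its r with the other abundant members was between -0.487 and -0.322.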

How the data were processed

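The authors deposited raw UMI counts per gene and cell barcode for 1 library of each genotype, which the file headers credit to Cell Ranger 6.0.0. Build mm10 and Seurat 4.3.0 are named per the submitters' processing notes, without the use of Seurat being stated, and the labels do not settle whether the kit was version 2 or 3. Near-identical genes can lose reads that such counting finds ambiguous. The barcodes were already filtered, since none had under 502 UMIs.

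From these counts, 72 barcodes of PKM2ΔMAC and 64 of PKM2FL/FL with fewer than 300 genes or with 20% or more mitochondrial UMIs were removed. Scrublet (scanpy 1.11.5, expected doublet rate 0.08) then removed doublets (330 and 461 barcodes, 3.72% and 4.62%). Free RNA was not subtracted. Cells were gated by raw UMIs of marker genes. No T cell receptor delta constant gene is among the features used here, so gamma-delta T cells could not be gated. They stayed in whichever T-like gate their other markers met, the CD8 T-like and NKT-like gates included. The monocyte gate as designed needed Lyz2 and held 1 cell of PKM2ΔMAC and 193 of PKM2FL/FL, so it was used without Lyz2 (114 and 224 cells), a choice made after seeing the data.

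UMIs were summed per library and gate and scaled to CPM, with exact Poisson intervals for levels, exact conditional intervals for ratios of PKM2ΔMAC over PKM2FL/FL and Clopper-Pearson intervals for shares. Values at 1500 UMIs per cell are expected values over all possible thinnings, with shallower cells left out. The background at 1.5-fold is over genes that reach 20 UMIs with both sides of the comparison added. These sides are both libraries of a gate or, where gates are compared within a library, both gates of that library. A 3′ library gives about 1 UMI per captured transcript, so transcript length does not enter the levels. All 10 members are named, with the 3 genes of most similar pattern for members with at least 500 UMIs, and list genes with at least 50 UMIs in NK-like cells, up to 3 in each direction; Hic1 is named from the count of genes past 1.5-fold. Members and lists were chosen with earlier results of these data known. Positions are from GENCODE M21 and promoters from RefSeq, both on GRCm38, and all 10 members matched. Versions were scipy 1.17.1, numpy 2.4.6, pandas 2.3.3, biopython 1.88, matplotlib 3.10.9 and Python 3.11.15, and the interval and thinning functions were tested on simulated data.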

Additional observations from a re-analysis of the deposited data

How the results depend on the processing

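Alternatives were other filters on cells, no doublet removal, stricter and looser gates, other scales and thinning; a split of NK-like and ILC1-like cells by the greater marker sum and an ILC1 gate without Il7r were chosen after seeing the data. The NK-like sum, Klra4, Klra6 and Klra7, whose intervals held 1, crossed it under some alternatives. The interval of the NK-like sum left out 1 with median-of-ratios size factors, at 1.04 (1.003 to 1.08). That of Klra5 did so with the split by the greater marker sum, at 1.79 (1.02 to 3.15). Klra3 ranged from 1.12 to 1.26, and its interval left out 1 with a looser gate, with median-of-ratios size factors and with that split. The Ly49 sum ratio of PKM2ΔMAC over PKM2FL/FL ranged from 0.991 to 1.04 in NK-like cells, 0.669 to 0.797 in ILC1-like cells and 0.477 to 0.547 in CD8 T-like cells, and the Klra17 ratio in plasmacytoid dendritic-like cells from 1.39 to 1.55, past 1.5-fold with median-of-ratios size factors alone. With a stricter gate, 96.3% of PKM2ΔMAC and 96.6% of PKM2FL/FL NK-like cells had a Ly49 UMI, with means of 2.89 and 2.81 genes per cell. Thinned to 1500 UMIs, these were 86.6% and 86.2%, with 1.86 and 1.802 genes. The count of genes past 1.5-fold in NK-like cells was 1327 of 9164, against 338 of 5664 with at least 100 UMIs and 2372 of 10966 with at least 5 UMIs. Of single members in NK-like cells, Klra9 moved to 1.32 when thinned and was 1.07 (0.977 to 1.16) with the split by the greater marker sum, Klra1 ranged from 1.17 to 1.503, Klra5 from 1.18 to 1.79, Klra6 from 0.584 to 1.02, Klra10 from 1.46 to 1.67 and Klra8 from 0.902 to 0.943, with an interval that held 1 with a stricter gate (0.870 to 1.02) and with median-of-ratios size factors (0.871 to 1.01). The Klra17 ratio in classical monocyte-like cells, on 9 UMIs in all, ranged from 0.159 to 0.782. No paired analysis was possible because each genotype is 1 library, and for the same reason no replicate could be left out. Depth limits Klra5, Klra6, Klra10 and, outside plasmacytoid dendritic-like cells, Klra17.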

Other observations

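Klra2 (Ly49B), the 11th Klra symbol in the matrices and the only one outside the 10 members, lay in myeloid cells. It is at chr6:131219223-131247362 of GRCm38, apart from the cluster of the other genes. Classical monocyte-like cells had 141 CPM in the PKM2ΔMAC library and 109 CPM in PKM2FL/FL, with a UMI in 52.6% and 44.2% of cells. Non-classical monocyte-like cells had 167 and 62.4 CPM, on 27 and 42 cells. Neutrophil-like cells had 82.1 and 99.3 CPM, with a UMI in 16.6% and 19.7% of cells, and Kupffer-like cells had 9 UMIs each, 54.3 and 51.0 CPM. NK-like cells had 1 and 2 UMIs. With 1 library a genotype none of these differences was tested.

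Kupffer-like cells gave the other members in few cells. The 9 members other than Klra17 had 21 UMIs in 4 of 100 cells of the PKM2ΔMAC library and 30 UMIs in 3 of 104 cells of PKM2FL/FL, and in PKM2FL/FL 8 UMIs of Klra4 lay in 1 cell and 7 of Klra8 in 1 cell. In neutrophil-like cells the same 9 members had 13 UMIs over 591 cells of the PKM2ΔMAC library and 124 UMIs over 580 cells of PKM2FL/FL, while Klra17 had 18 and 24 UMIs there.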
